A study of Mus musculus with 4 samples.

Results

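The aminoacyl-tRNA synthetases and the scaffold proteins that hold some of them together were examined across control and *Eef1g*-cKO leptotene/zygotene spermatocytes. The members were chosen by gene symbol from a fixed list, and all 38 were among the 11598 genes of the deposited table: 20 cytosolic enzyme genes, 15 mitochondrial enzyme genes (those with the suffix 2) and the 3 scaffold genes *Aimp1*, *Aimp2* and *Eef1e1*. All 38 were tested, as each averaged 1 FPKM or more across the libraries. Ribosome-protected fragments (RPFs), the pieces of mRNA left inside ribosomes after RNase I digestion, were sequenced from 2 control and 2 *Eef1g*-cKO libraries of spermatocytes sorted by FACS from mouse testes at 12 dpp. The control animals are labelled wild type, and in the study's methods they are littermate controls. In *Eef1g*-cKO mice, which were made on a C57BL/6J background, *Stra8*-GFPCre deletes exons of a floxed *Eef1g* allele in male germ cells from spermatogonia on, so other cells of the testis keep the gene. Cells were gated on Hoechst fluorescence.

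A synthetase joins one amino acid to its tRNAs, and the charged tRNA is then carried to the ribosome by eEF1A, whose nucleotide exchange is catalysed by the eEF1B complex that contains eEF1G. In mammals 8 of the cytosolic enzyme genes (*Dars*, *Eprs*, *Iars*, *Kars*, *Lars*, *Mars*, *Qars* and *Rars*) encode members of a multi-synthetase complex built on AIMP1, AIMP2 and AIMP3, the last encoded by *Eef1e1*. The valyl enzyme, encoded by *Vars*, is instead known to bind the eEF1 complex. Mitochondria translate their own mRNAs with a separate set of enzymes, although *Gars* and *Kars* each serve both compartments from one gene.

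The control libraries held 2479504 and 1384282 gene-assigned reads (replicates 1 and 2), the *Eef1g*-cKO libraries 223906 and 407979. Finding 0 reads allows a true count of up to 3 (95% confidence), and for a gene of 1 kb this limit lies at 1.21 and 2.17 FPKM in control but at 13.4 and 7.35 FPKM in *Eef1g*-cKO; limits and intervals cover counting error only. The targeted gene had 107 and 58 reads in control against 0 and 4 in *Eef1g*-cKO. Markers of the labelled stage had reads in every library. Of 12 leptotene and zygotene markers 11 were in the table, with 3848 and 2866 RPM in control against 7065 and 6442 in *Eef1g*-cKO. RPM are the summed reads of the set scaled to a common library total, as in FPKM but without gene length. Of these 11 genes 4 were higher by limma's adjusted p (36.4%, against 2.87% of all genes). *Stra8*, which acts at meiotic entry, was lower (9.09%, against 4.97%). Markers of spermatogonia (12 of 12 in the table) were lower, with 2690 and 3262 RPM in control against 464 and 463 in *Eef1g*-cKO. In control replicate 2 their sum was above that of the leptotene and zygotene markers. By limma's adjusted p 6 of the 12 were lower (50%, against 4.97% of all genes). *Gfra1*, *Id4*, *Lin28a*, *Nanos3* and *Ret* had 0 reads in *Eef1g*-cKO replicate 1 and *Etv5* in replicate 2. Pachytene markers (5 of 10 in the table) ranged from 426 to 572 RPM in control and from 737 to 858 in *Eef1g*-cKO. Sertoli cell markers (10 of 12 in the table) stood at 1602 and 656 in control and at 858 and 696 in *Eef1g*-cKO, but *Ctsl*, which other cells also express, and *Clu* carried much of this sum. Of the 10 genes 9 had a negative log2 fold change, and the median was −1.44. For 7 of the 10 both *Eef1g*-cKO libraries were below both control libraries, against 37.7% of all genes. With edgeR 3 of the 7 it tested were lower by adjusted p, against 11.2% of 8056 genes. By limma's adjusted p 0 were lower (against 4.97%), and *Gata4* was at 0 in both *Eef1g*-cKO libraries. Spermatid markers (3 of 10) reached at most 28.9 RPM in any library, Leydig cell markers (3 of 6) at most 11.6 and peritubular markers (3 of 5) at most 125. The part of these marker differences in the members' results was not tested, and in bulk libraries fewer cells of a type and fewer RPFs per cell cannot be told apart.

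As a family, the synthetases and scaffold proteins took about the same share of the gene-assigned reads in both genotypes, while single members moved far apart. The 38 genes held 0.664% of the counted reads in control replicate 1 (95% Wilson interval 0.654 to 0.674), 0.792% in control replicate 2 (0.778 to 0.807), 0.711% in *Eef1g*-cKO replicate 1 (0.677 to 0.747) and 0.729% in *Eef1g*-cKO replicate 2 (0.703 to 0.755). Both *Eef1g*-cKO libraries lay between the control libraries. The family stood at 7282 ± 907 RPM in control and at 7199 ± 125 in *Eef1g*-cKO (SD, n = 2 each), a ratio of 0.989 (exact two-sided permutation test, p = 1; with 2 against 2 libraries the smallest p is 0.333). This total was made of opposite shifts, since 17 members gained reads (1460 RPM in sum), while the summed change of the other 21 was −1543. *Vars* alone accounted for −377 and *Farsb* for 238.

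By class, the cytosolic enzymes held 6100 ± 837 RPM in control and 5939 ± 100 in *Eef1g*-cKO, and the mitochondrial enzymes 792 ± 56.1 and 829 ± 41.3 (SD, n = 2 each). The genotypes overlapped for both classes. The scaffold genes held 391 ± 13.5 in control and 431 ± 16.3 in *Eef1g*-cKO (SD, n = 2 each), with both *Eef1g*-cKO libraries higher. With 2 libraries against 2, no such single value can pass an exact test.

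**Figure D1:**
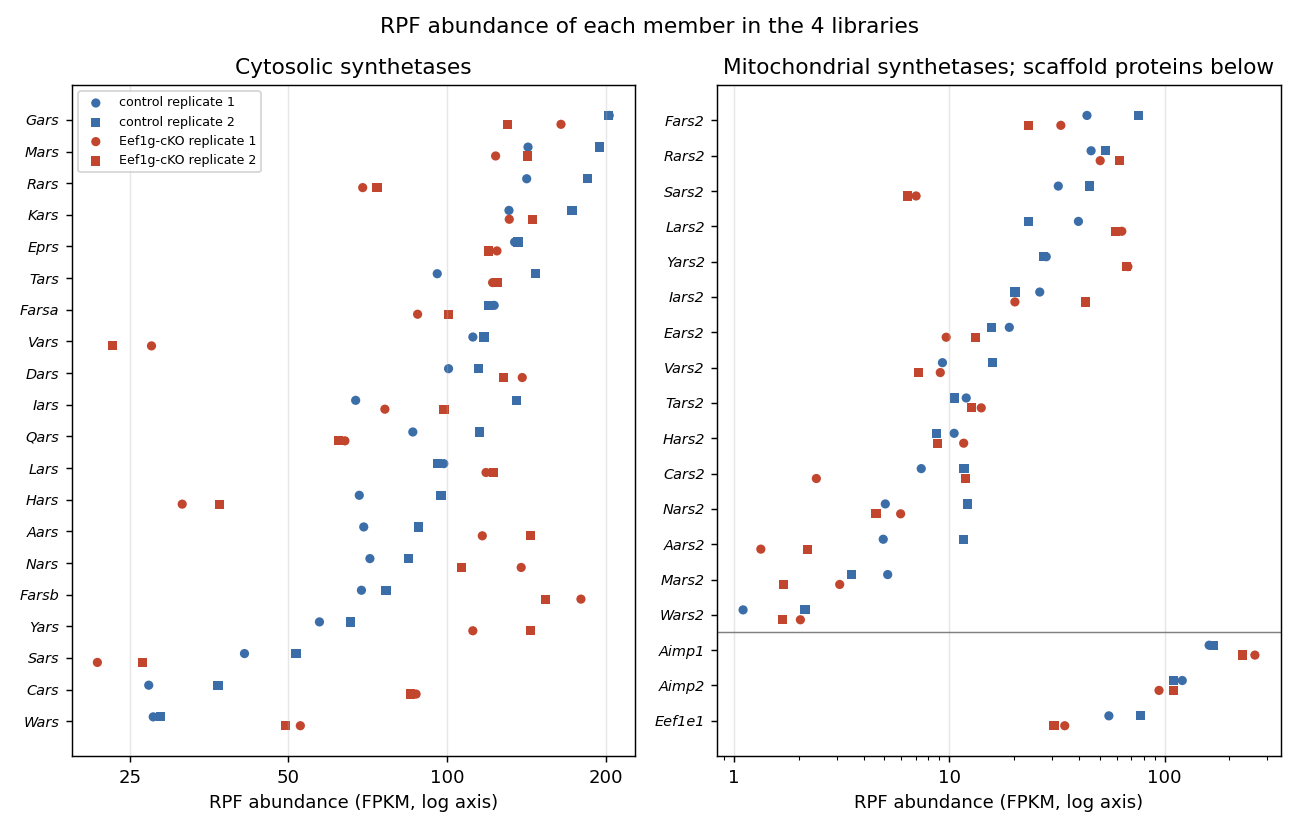
RPF abundance of the 38 members in FPKM on a log axis, 1 point per library (circles, replicate 1; squares, replicate 2; blue, control; red, *Eef1g*-cKO), ordered by the control mean within each class. *Vars* sits at 112 and 117 FPKM in control and at 27.5 and 23.2 in *Eef1g*-cKO, and *Farsb* moves from 68.8 and 76.5 to 179 and 153.

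The levels of the cytosolic enzymes spanned less than a decade. The deposited FPKM divide by gene length, untranslated parts included, which was from 1.07 times (*Eprs*) to 4.06 times (*Wars2*) the longest coding sequence of a member, while RPFs come mostly from coding sequence. Levels of different genes were therefore compared as FPKM rescaled to that coding length, a step chosen after the data were examined. On this scale the median cytosolic enzyme gene stood at 120 in control, against 21.6 for 9772 genes, and each of the 20 was above that median. *Gars*, the glycyl enzyme, had the highest level in control with 222 and 221 FPKM per coding length (203 and 202 FPKM as deposited). It was followed by *Kars* (lysyl; 160 and 210), *Mars* (methionyl; 155 and 211), *Dars* (aspartyl; 168 and 191) and *Rars* (arginyl; 152 and 199), which overlapped each other and lay below *Gars*.

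The lowest levels in control per coding length were those of *Cars* (cysteinyl; 35.1 and 47.5) and *Wars* (tryptophanyl; 55.3 and 57.1), which did not overlap. *Sars*, the seryl enzyme, was among the 3 lowest in deposited FPKM (41.3 and 51.7) but in the middle per coding length (95.1 and 119). The highest mean was 5.36-fold the lowest in control and 8.46-fold the lowest in *Eef1g*-cKO. The order itself changed: per coding length *Farsb* went from rank 16 of 20 in control to rank 1 in *Eef1g*-cKO, *Rars* from rank 5 to rank 16 and *Vars* from rank 9 to rank 20. Most neighbours in these orders overlapped, as 4 of 19 neighbouring pairs in control and 7 of 19 in *Eef1g*-cKO had libraries that did not overlap. Mitochondrial enzyme genes were lower, with a median of 22.5 per coding length in control, from 83.7 ± 31.9 for *Fars2* to 6.59 ± 2.98 for *Wars2* (SD, n = 2 each).

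RPF abundance was then compared gene by gene with limma on the log2(FPKM + 1) scale over all 10475 genes, where an added 1 FPKM shrinks the changes of low genes. A gene was called where p was below 0.05 and the log2 fold change was beyond 1 in size. By Benjamini-Hochberg adjusted p, *Cars*, *Farsb* and *Yars2* were higher in *Eef1g*-cKO, or 3 of 38 members (7.89%) against 2.87% of all genes. *Vars*, *Hars*, *Rars* and *Sars2* were lower, or 4 of 38 (10.5%) against 4.97% of all genes. By unadjusted p, 4 members (10.5%) were higher against 7.32% of all genes, with *Yars* added, and 6 (15.8%) were lower against 16.3%, with *Aars2* and *Fars2* added, so the share of lower members was near the background. The genotypes did not overlap, with both *Eef1g*-cKO libraries higher, for 12 members (24.6% of all genes), and with both lower for 17 (37.7% of all genes). The median log2 fold change was −0.14 over the 38 members and −0.23 over all genes, and 17 members had a positive and 21 a negative sign.

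**Figure D2:**
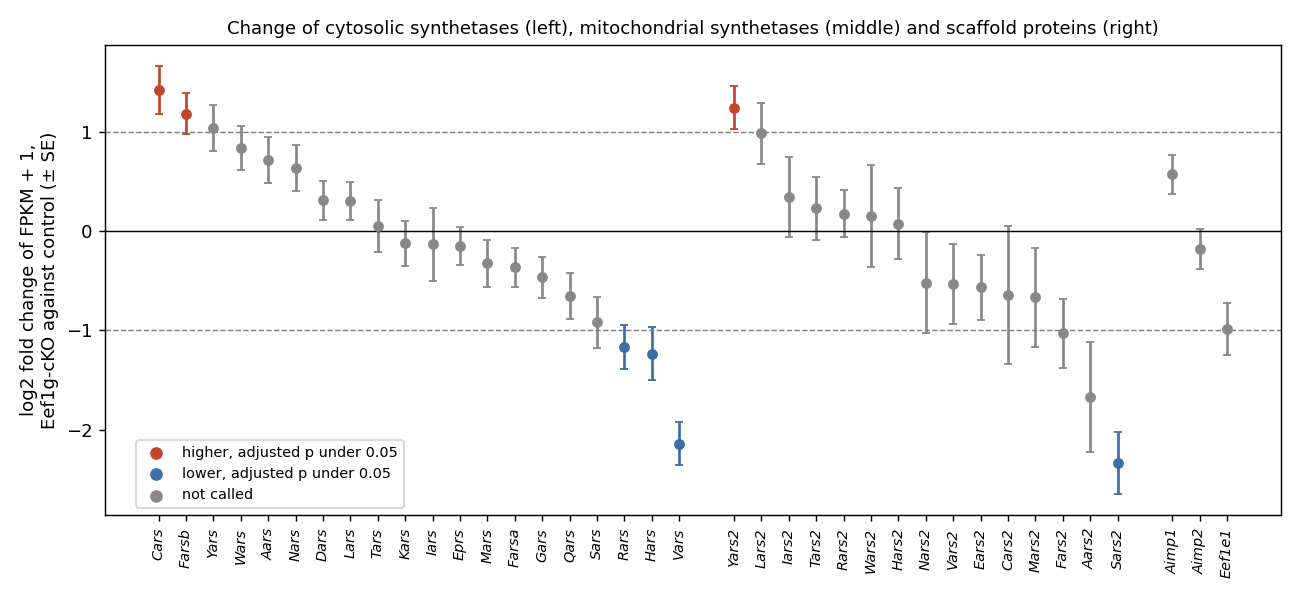
Log2 fold change of FPKM + 1 in *Eef1g*-cKO against control for each member (points) with the limma standard error (bars), ordered within the cytosolic enzymes, the mitochondrial enzymes and the scaffold genes; dashed lines mark a change of 1. Red points passed the adjusted p as higher, blue as lower; the range runs from −2.33 for *Sars2* to 1.42 for *Cars*.

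Count models were also run on the recovered reads. With edgeR (quasi-likelihood) 5 members were higher by adjusted p, against 8.75% of 8056 genes, and 5 were lower, against 11.2%; with DESeq2 5 were higher, against 5.94% of genes, and 4 lower, against 5.34%. The edgeR fit held 36 members, leaving out *Mars2* and *Wars2* for low counts. *Cars*, *Farsb*, *Yars2*, *Vars*, *Hars*, *Rars* and *Sars2* were called by both tests in the same direction, and edgeR added *Yars* and *Lars2* as higher and *Fars2* as lower. The limma calls by adjusted p rested on both control libraries. They were lost, for the members and for all other genes, when either was left out, which leaves 1 control sample. The called members kept their sign in those fits.

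*Vars* (chromosome 17 of GRCm38, 35000907 to 35016329) showed the largest fall of a cytosolic enzyme. It had 1172 and 687 reads in control against 26 and 40 in *Eef1g*-cKO, or 112 and 117 FPKM against 27.5 and 23.2 FPKM. Both *Eef1g*-cKO libraries were low, and the genotypes were far apart relative to the spread within each. The log2 fold change was −2.14 (standard error 0.22, limma adjusted p = 0.0216; edgeR −2.12). Leaving out each library in turn moved it between −2.26 and −2.02.

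The subunits of eEF1, the complex that the valyl enzyme binds, include *Eef1d*, the one of them that passed the adjusted p in limma. This was 1 of 5 genes called lower (20%, against 4.97% of all genes). *Eef1d* encodes a nucleotide exchange subunit of eEF1B and had 96.0 and 113 FPKM in control against 25.2 and 25.3 in *Eef1g*-cKO, and its log2 fold change was −2.0 (limma standard error 0.22, adjusted p = 0.0225). *Eef1b2*, the other exchange subunit, had 92.8 and 109 FPKM in control against 55.5 and 39.3 in *Eef1g*-cKO (−1.09, limma adjusted p = 0.0561). *Eef1a1*, which encodes the tRNA carrier itself, had 366 and 441 FPKM in control against 217 and 230 in *Eef1g*-cKO (−0.84, limma adjusted p = 0.0615). The genotypes did not overlap for any of these 3 genes. Both *Eef1g*-cKO libraries were below both control libraries for 4 of the 5 eEF1 genes, against 37.7% of all genes. *Eef1a2* overlapped, with 22 and 4 reads in control against 1 and 0 in *Eef1g*-cKO. The changes of *Eef1d*, *Eef1b2* and *Eef1a1* passed the adjusted p in edgeR, that of *Eef1a1* below the fold threshold.

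**Figure D3:**
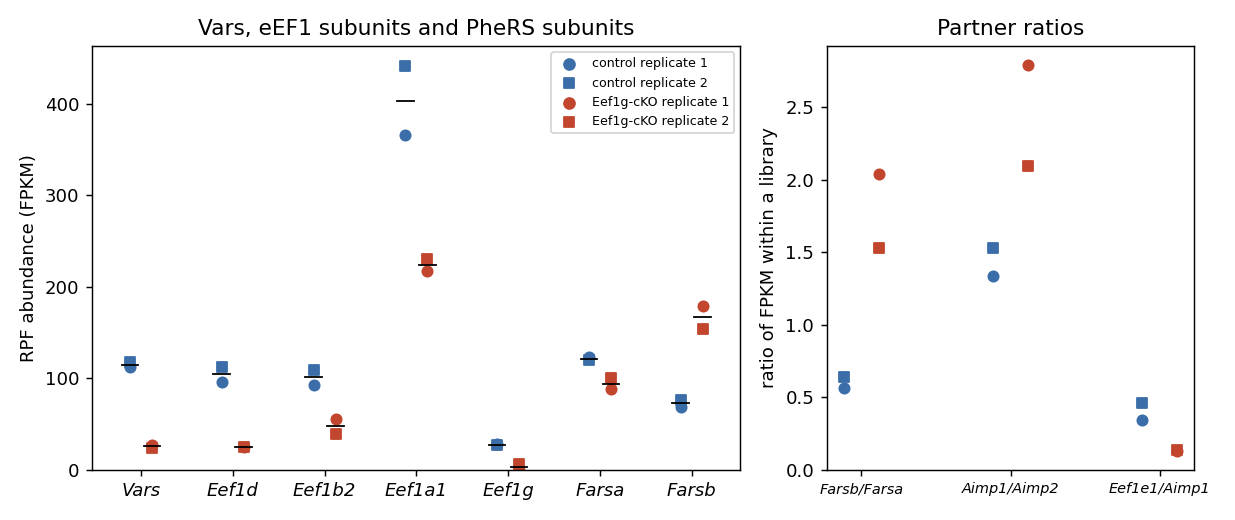
Left, RPF abundance in FPKM of *Vars*, of eEF1 subunits and of both subunits of the phenylalanyl enzyme, with 1 point per library (blue, control; red, *Eef1g*-cKO) and a bar at the mean. Right, ratios of FPKM between partner genes within each library; *Farsb* over *Farsa* is 0.560 and 0.640 in control against 2.04 and 1.53 in *Eef1g*-cKO.

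The phenylalanyl enzyme is a tetramer made of equal numbers of α and β subunits, and its subunit genes did not move together. *Farsb* (β; chromosome 1, 78417958 to 78488897) had 68.8 and 76.5 FPKM in control against 179 and 153 in *Eef1g*-cKO, and rose by 1.18 on the log2 scale (standard error 0.21, limma adjusted p = 0.0366). *Farsa* (α; chromosome 8, 84856969 to 84869257) had 123 and 120 FPKM in control against 87.9 and 101 in *Eef1g*-cKO, a difference of −0.36 on the log2 scale (limma adjusted p = 0.265). Within each control library *Farsa* was the higher of the pair, and within each *Eef1g*-cKO library *Farsb* was. The ratio of *Farsb* to *Farsa* in deposited FPKM was 0.560 and 0.640 in control against 2.04 and 1.53 in *Eef1g*-cKO, 1.56 apart on the log2 scale (exact two-sided permutation p = 0.333, the smallest possible). Per coding length the ratio was 0.670 and 0.766 in control against 2.44 and 1.83 in *Eef1g*-cKO, with the same difference between genotypes. This pair was singled out after its values were seen. Exons of *Farsb* overlap those of *Sgpp2* on the opposite strand by up to 248 bases in GENCODE M21, and whether the reads were counted by strand is not given in the sources used here.

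Among the other free cytosolic enzymes, *Cars* (chromosome 7, 143557230 to 143600090) rose the most. It had 217 and 164 reads in control against 63 and 112 in *Eef1g*-cKO, or 27.2 and 36.8 FPKM against 87.3 and 85.2 FPKM. From rank 20 of 20 per coding length in control it came to rank 13, with a change of 1.42 on the log2 scale (standard error 0.24, limma adjusted p = 0.0354). *Yars*, the tyrosyl enzyme (chromosome 4, 129189734 to 129219240), had 57.3 and 65.6 FPKM in control against 112 and 144 in *Eef1g*-cKO. Its change of 1.04 stood at the edge of both thresholds in limma (standard error 0.23, adjusted p = 0.0507) and passed in edgeR (1.15, adjusted p = 0.00125).

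*Hars*, the histidyl enzyme, had 336 and 268 reads in control against 14 and 30 in *Eef1g*-cKO, or 68.1 and 97.3 FPKM against 31.4 and 37.0 FPKM. The change of −1.23 was close to the limit (standard error 0.26, limma adjusted p = 0.0489) and passed in edgeR (adjusted p = 0.00755). Its mitochondrial counterpart *Hars2* is transcribed from the opposite strand next to it, with exons that overlap by up to 195 bases, and had 10.5 and 8.73 FPKM in control against 11.7 and 8.81 in *Eef1g*-cKO (0.07, limma adjusted p = 0.906). The *Hars2* libraries overlapped between genotypes while those of *Hars* did not. *Sars*, 41.3 and 51.7 FPKM in control against 21.7 and 26.5 in *Eef1g*-cKO, changed by −0.92, short of both thresholds in limma (adjusted p = 0.0796) and past the p but not the fold threshold in edgeR (adjusted p = 0.0292). *Wars* changed by 0.84 from 27.7 and 28.6 to 52.7 and 49.3 FPKM (limma adjusted p = 0.0720). *Gars*, the most abundant in control, had 164 and 130 FPKM in *Eef1g*-cKO and a change of −0.47 (limma adjusted p = 0.198).

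Enzymes of the multi-synthetase complex changed within narrower limits than the free ones. The log2 fold changes of its 8 enzyme genes ran from −1.17 for *Rars* to 0.31 for *Dars* with a median of −0.14, whereas the cytosolic enzymes as a whole ran from −2.14 to 1.42; these ranges are a description and their difference was not tested. *Rars* (chromosome 11, 35808381 to 35834528), whose enzyme binds AIMP1, was the only enzyme gene of the complex called, with 142 and 185 FPKM in control against 69.2 and 73.6 in *Eef1g*-cKO (−1.17, standard error 0.22, limma adjusted p = 0.0403). *Mars* had 142 and 194 FPKM in control against 124 and 142 in *Eef1g*-cKO (−0.32, limma adjusted p = 0.387). *Iars*, the isoleucyl enzyme, was the least certain, since its control libraries differed by themselves (67.1 and 135 FPKM) and the *Eef1g*-cKO libraries lay between them (76.2 and 98.7 FPKM).

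The 3 scaffold genes did not change alike. *Aimp1*, the subunit that holds the arginyl enzyme, had 161 and 169 FPKM in control against 263 and 229 in *Eef1g*-cKO (log2 fold change 0.57, standard error 0.20, limma adjusted p = 0.118; edgeR adjusted p = 0.0414 at a change of 0.64). *Aimp2*, the central scaffold, had 121 and 110 FPKM in control against 94.2 and 110 in *Eef1g*-cKO (−0.18, standard error 0.20, limma adjusted p = 0.574), with the sign turned to 0.03 when each library was centred on its median. *Eef1e1*, whose product AIMP3 has a GST-like domain as eEF1G does, had 142 and 111 reads in control against 8 and 13 in *Eef1g*-cKO. In FPKM this was 55.1 and 77.2 against 34.4 and 30.7, a change of −0.98 (standard error 0.26, limma adjusted p = 0.0694; edgeR adjusted p = 0.0922). The ratio of *Eef1e1* to *Aimp1* in deposited FPKM was 0.342 and 0.458 in control against 0.131 and 0.134 in *Eef1g*-cKO, so that within a library the scaffold genes stood in other proportions in the 2 genotypes (difference −1.58 on the log2 scale, exact two-sided permutation p = 0.333, the smallest possible). Per coding length this ratio was 0.581 and 0.777 in control against 0.222 and 0.227 in *Eef1g*-cKO. None of the 3 genes passed both thresholds in limma or edgeR.

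Synthetases fall into 2 structural classes by the fold of the catalytic domain, and each held calls in both directions by limma's adjusted p, against 2.87% of all genes higher and 4.97% lower. With so few genes these counts are a description. Of the 9 class I cytosolic genes, *Cars* was higher and *Rars* and *Vars* were lower. Of the 10 class II genes, *Farsb* was higher and *Hars* lower. *Eprs*, which joins an enzyme of each class in one protein, changed by −0.15 (134 and 136 FPKM in control, 124 and 120 in *Eef1g*-cKO; limma adjusted p = 0.625).

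Of the mitochondrial enzymes, *Sars2* (seryl; chromosome 7, 28741957 to 28753879) fell the furthest. It had 152 and 118 reads in control against 3 and 5 in *Eef1g*-cKO, or 32.1 and 44.6 FPKM against 7.01 and 6.42 FPKM. Its change of −2.33 on the log2 scale (standard error 0.31, limma adjusted p = 0.0295) was the largest of the 38 members in either direction. *Yars2*, the tyrosyl enzyme of mitochondria (chromosome 16, 16302965 to 16309640), rose as did *Yars*. It had 28.2 and 27.3 FPKM in control against 67.5 and 66.4 in *Eef1g*-cKO, with replicates of each genotype nearly equal (1.24, standard error 0.22, limma adjusted p = 0.0365).

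*Lars2*, the leucyl enzyme, had 39.8 and 23.3 FPKM in control against 63.3 and 59.4 in *Eef1g*-cKO (0.99, limma adjusted p = 0.0993), and edgeR called it higher (1.01, adjusted p = 0.0107). *Fars2*, the phenylalanyl enzyme, had 43.6 and 75.8 FPKM in control against 33.0 and 23.3 in *Eef1g*-cKO (−1.03, limma adjusted p = 0.114), and edgeR called it lower (adjusted p = 0.0389). Both lay at the threshold of fold, and the control libraries of both were well apart. *Aars2*, the alanyl enzyme, had 41 and 54 reads in control and only 1 and 3 in *Eef1g*-cKO, a pooled ratio of 0.257 with an exact 95% counting interval of 0.0687 to 0.681. Its limma change passed the unadjusted p and not the adjusted p (0.111).

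*Mars2* (4 reads over both *Eef1g*-cKO libraries against 51 in control, ratio 0.480, interval 0.126 to 1.30) and *Wars2* (5 against 25, ratio 1.22, interval 0.366 to 3.25) were too shallow for a difference to be detectable. The remaining 8 mitochondrial genes were not called in limma or edgeR. The median log2 fold change of the 15 mitochondrial genes was −0.52, but it was unstable: it was −0.24 with *Aars2*, *Mars2* and *Wars2* set to the limit of 3 reads in each *Eef1g*-cKO library, 0.02 with the trend on GC content removed, −0.11 without *Eef1g*-cKO replicate 1 and −0.05 without control replicate 2. Over the 13 genes that edgeR tested it was −0.52 in limma and −0.12 in edgeR.

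Cytosolic and mitochondrial enzymes of one amino acid often stood in other proportions in the 2 genotypes. Pairs were formed for 13 amino acids, leaving out glutamate (*Eprs* and *Ears2*) and phenylalanine (*Farsa*, *Farsb* and *Fars2*). Over these 13 pairs the mean cytosolic level per coding length in control was from 2.27-fold (*Sars* over *Sars2*) to 25.7-fold (*Mars* over *Mars2*) the mitochondrial one. The median was 5.47. In *Eef1g*-cKO the ratios ran from 1.27 (*Rars* over *Rars2*) to 82.9 (*Aars* over *Aars2*, on 4 reads of *Aars2*), also with a median of 5.47. The ratio was higher in *Eef1g*-cKO for 6 pairs and lower for 7, with a median difference of −0.19 on the log2 scale. *Vars* over *Vars2* was 9.64 and 5.94 in control against 2.42 and 2.58 in *Eef1g*-cKO, while *Sars* over *Sars2* went the other way, from 2.41 and 2.17 to 5.80 and 7.73. *Yars* over *Yars2*, 3.08 and 3.64 in control against 2.51 and 3.29 in *Eef1g*-cKO, overlapped.

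Several cytosolic synthetase genes are known targets of ATF4, the transcription factor that stress on amino acid supply or protein folding induces, which binds C/EBP-ATF composite elements. The letters TGATGNAA, which cover the core of this element, were searched on both strands in the RefSeq windows from 250 bases before to 50 bases after each gene start (GRCm38.p6). *Cars*, *Hars*, *Lars*, *Nars*, *Rars*, *Vars*, *Wars* and *Hars2* had no window and were not searched. The letters were found for 5 of the 30 members with a window and for 4.51% of 27025 genes. All 5 belong to the 12 synthetases listed here as ATF4 targets. One match for each gene follows with the matching letters in capitals on the strand that reads TGATG, together with that of *Asns*, asparagine synthetase, a classic ATF4 target and the reference for the group. A match is a description of these letters and not of a bound site.
*Aars*, chr8:111033841-111033868, minus strand: cagagcgctcTGATGAAAagtgacccgc
*Gars*, chr6:55037961-55037988, minus strand: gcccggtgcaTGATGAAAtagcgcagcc
*Iars*, chr13:49682127-49682154, minus strand: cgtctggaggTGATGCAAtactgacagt
*Tars*, chr15:11399656-11399683, plus strand: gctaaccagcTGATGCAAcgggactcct
*Yars*, chr4:129189896-129189923, plus strand: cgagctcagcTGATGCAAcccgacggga
*Asns*, chr6:7693215-7693242, minus strand: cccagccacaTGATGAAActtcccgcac

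The genes with these letters did not share a direction. *Asns* rose strongly, from 25.7 and 41.2 FPKM in control to 227 and 178 in *Eef1g*-cKO (log2 fold change 2.59, standard error 0.29, limma adjusted p = 0.0225). Of the 5 synthetase genes only *Yars* was called, by unadjusted p in limma and by edgeR. The 5 changes ran from −0.47 for *Gars* to 1.04 for *Yars* with a median of 0.05, against −0.32 for the 25 members with a window and no match. The 2 medians also differ by class. All 5 genes are cytosolic enzymes, while the 25 include mitochondrial enzymes and scaffold genes. By class the median was −0.13 for the cytosolic and −0.52 for the mitochondrial enzymes. *Aars* had 69.5 and 88.3 FPKM in control against 117 and 144 in *Eef1g*-cKO (0.72, limma adjusted p = 0.105). Exons of *Aars* overlap those of *Exosc6* on the same strand by up to 1326 bases in GENCODE M21, so reads there cannot be assigned to one gene.

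Over the 12 synthetases listed as ATF4 targets the median log2 fold change was 0.18, with 7 positive and 5 negative signs. By limma's adjusted p 1 of them was higher (*Cars*; 8.33%, against 2.87% of all genes) and 0 lower (against 4.97%). By unadjusted p 2 were higher (16.7%, against 7.32%) and 0 lower (against 16.3%), and edgeR called 2 higher (8.75% of all genes) and 0 lower (11.2%). Of 25 other ATF4 targets, 22 were in the table and their median was −0.02. By limma's adjusted p *Asns* was the only one higher (4.55%, against 2.87% of all genes), and *Phgdh* and *Psph*, enzymes of serine synthesis, were lower (9.09%, against 4.97%). *Phgdh* had 34 and 34 reads in control against 0 and 1 in *Eef1g*-cKO, and *Psph* had 34.1 and 32.4 FPKM in control against 11.6 and 14.4 in *Eef1g*-cKO (−1.30, limma adjusted p = 0.0479).

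The change in RPF abundance tended to be lower for members with a higher coding GC content, less so among the cytosolic enzymes. GC content of the longest coding sequence in GENCODE M21 ranged from 43.6% (*Dars*) to 61.1% (*Sars2*) over the 38 members. Spearman's rho with the log2 fold change was −0.35 across the 38 genes and −0.29 across 9772 genes tested with a coding sequence. It was −0.19 across the 20 cytosolic and −0.60 across the 15 mitochondrial enzyme genes. The genes share libraries and are not independent replicates, so these values are a description. The 3 members with the lowest log2 fold changes, *Sars2* (61.1% GC), *Vars* (60.0%) and *Aars2* (60.9%), were among the 5 with the highest GC content, but *Vars2* (60.2%) and *Ears2* (59.4%), the other 2, changed by −0.53 and −0.56 and were not called. With each library's trend on GC content removed, a step added after the data were examined, the change of *Vars* was −1.54 (limma adjusted p = 0.0146) and that of *Sars2* −1.72 (adjusted p = 0.0235), while *Hars* lost its call (−0.97, adjusted p = 0.0519) and *Aars*, *Wars* and *Yars* gained one (1.08, 1.08 and 1.36).

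**Figure D4:**
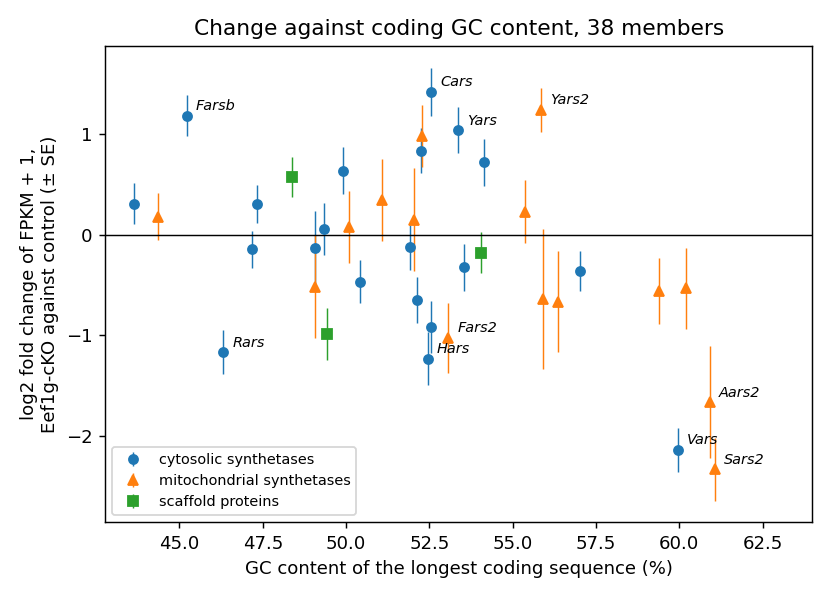
Log2 fold change of FPKM + 1 in *Eef1g*-cKO against control (points, with the limma standard error as bars) against the GC content of the longest coding sequence in percent, for cytosolic enzymes (circles), mitochondrial enzymes (triangles) and scaffold genes (squares). Members called by unadjusted p are named; *Vars*, *Sars2* and *Aars2* lie at the lower right, near 60.0% to 61.1% GC.

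Within a genotype the members kept their order closely. Pearson's r of log2(FPKM + 1) over the 38 genes was 0.967 for the control pair, 0.972 for the *Eef1g*-cKO pair and 0.838 to 0.884 across genotypes. These coefficients are across genes and carry no p. Over all genes, same-genotype libraries were further apart than read sampling gives (chi-square per degree of freedom 13.2 in control, 1.96 in *Eef1g*-cKO), and all 4 were kept as separate replicates; the labels do not say which animals each came from beyond calling them biological replicates.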

How the data were processed

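RPF libraries of 2 control and 2 *Eef1g*-cKO samples were grouped by the sample titles. The authors trimmed adapters, filtered by quality and aligned to the genome; the submitters' processing notes list cutadapt, Bowtie, STAR and the builds mm10 and hg38, and the counter, annotation and strand setting are not given in the sources used here. The deposited FPKM scale each gene's reads by its length and by the library's gene-assigned reads. The deposited normalized counts are a signal, the count divided by a size factor per library; 100% of values in each library were whole multiples of 1 step (tolerance 0.001 reads), from which whole reads were obtained. Columns of the authors' comparison (log2 fold change with its error, test score, p-values) were not used.

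log2(FPKM + 1) was tested with limma 3.58.1 in R 4.3.3 (lmFit, eBayes with trend) in genes averaging 1 FPKM or more, with Benjamini-Hochberg adjustment over all of them; p-values measure the spread between libraries. Recovered reads were tested with edgeR 4.0.16 (filterByExpr, TMM, quasi-likelihood) and DESeq2 1.42.0. Exact tests used scipy 1.17.1. Coordinates and promoter windows are RefSeq's for GRCm38.p6; all 38 members matched, 37 by symbol and *Mars* by an older symbol. The members and gene lists (complex, classes, ATF4 targets, cell type markers) were chosen from general knowledge with earlier results of these data known. Values per library are given for members called by unadjusted p in limma or by edgeR, the scaffold genes, *Vars* and the cytosolic enzymes of extreme FPKM in control; others named were chosen after their values were seen. Alternatives were other pseudocounts, filters, scaling, prior variance, a replicate block, count models, each library left out and, chosen after the data were examined, a GC correction and levels per coding length (GENCODE M21).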

Additional observations from a re-analysis of the deposited data

How the results depend on the processing

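The signs of the 7 called changes held in every alternative run, and their calls did not. By adjusted p, 3 members were higher and 4 lower; edgeR gave 5 and 5, DESeq2 5 and 4, centring on library medians 5 and 2, a pseudocount of 0.1 FPKM 0 and 1, a prior variance without a trend 0 and 0 (4 and 5 by unadjusted p, 0 genes called in all) and the GC trend removed 6 and 3. By unadjusted p the GC trend removed gave 7 higher and 3 lower, against 10.6% and 11% of all genes. The shares over all genes moved as well: those called higher and lower by adjusted p were 2.87% and 4.97% as reported, 4.97% and 3.66% centred, 5.71% and 4.06% with the GC trend removed and 0.277% and 0.449% with a pseudocount of 0.1 FPKM. Leaving out 1 library gave 0 to 3 higher and 0 to 6 lower by adjusted p, and 4 higher and 2 to 8 lower by unadjusted p; by adjusted p 0% of all genes were called without either control library, and without *Eef1g*-cKO replicate 1 the lower calls were 2 (10.5% of all genes). Replicate numbers were shared between genotypes, but same-numbered libraries did not deviate together (r = −0.01). This correlation across genes cannot show whether they share litters or a preparation. With a replicate block 4 members were higher and 4 lower (4.05% and 7.85% of all genes).

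The median change of the members, −0.14, was 0.085 with the GC trend removed and lay between −0.29 and −0.0047 without 1 library. Centring raised every change by 0.21. The ratio of reads on all members, 0.989, lay between 0.909 and 1.08 without 1 library. It was 0.949 with *Rnu11*, the gene with most reads, left out of the library totals, and 1.05 with totals scaled by TMM. Members near 0 changed sign: centred, *Eprs* was 0.066, *Iars* 0.079, *Kars* 0.090 and *Aimp2* 0.031; with the GC trend removed, *Farsa* was 0.12, *Kars* 0.10, *Mars* 0.0057, *Ears2* 0.018, *Rars2* −0.0030, *Vars2* 0.068 and *Aimp2* 0.18. Without 1 library, *Iars* ran from −0.64 to 0.37, *Kars* ran from −0.32 to 0.074, *Tars* ran from −0.25 to 0.36, *Cars2* ran from −1.60 to 0.32, *Hars2* ran from −0.11 to 0.26, *Iars2* ran from −0.18 to 0.87, *Nars2* ran from −1.08 to 0.041, *Wars2* ran from −0.14 to 0.44. The cause of these shifts was not tested. Depth limits the mitochondrial genes most, where 3 of 15 had at most 3 reads in each *Eef1g*-cKO library.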

Other observations

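Genes that act beside the synthetases were followed as a list of 21, all in the table and 19 of them tested, among them editing and peptidyl-tRNA hydrolase genes, the mitochondrial amidotransferase genes and the selenocysteine pathway. By limma's adjusted p 0 were higher and 0 lower (2.87% and 4.97% of all genes). By unadjusted p 1 was higher (5.26%, against 7.32%) and 5 were lower (26.3%, against 16.3%), and edgeR called 1 higher and 1 lower by adjusted p (8.75% and 11.2% of all genes). These 6 genes are named after their values were seen. *Gatb*, a subunit of the amidotransferase that makes glutaminyl-tRNA in mitochondria, had 11.9 and 10.96 FPKM in control against 21.3 and 42.5 in *Eef1g*-cKO (log2 fold change 1.33, limma adjusted p = 0.0870; edgeR adjusted p = 0.00762). Its partner *Gatc* had 51 and 32 reads in control against 0 and 3 in *Eef1g*-cKO.

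*Pstk*, *Sephs2* and *Trnau1ap*, which serve the charging of selenocysteine tRNA or its use, were lower by unadjusted p. *Sephs2* had 16.3 and 22.2 FPKM in control against 6.15 and 6.75 in *Eef1g*-cKO (−1.43, limma adjusted p = 0.0592), *Pstk* had 56 and 54 reads in control against 2 and 5 in *Eef1g*-cKO (−1.41, limma adjusted p = 0.0730), and *Trnau1ap* had 40 and 28 reads in control against 1 and 3 in *Eef1g*-cKO. *Ptrh2*, a peptidyl-tRNA hydrolase, had 19.95 and 20.5 FPKM in control against 7.13 and 7.82 in *Eef1g*-cKO (−1.33, limma adjusted p = 0.0561; edgeR adjusted p = 0.0285). The other 4 genes of the selenocysteine pathway had positive log2 fold changes and were not called: *Sephs1* 0.75, *Secisbp2* 0.67, *Eefsec* 0.28 and *Sepsecs* 0.14. Both *Eef1g*-cKO libraries were above both control libraries for *Sephs1*, *Secisbp2* and *Eefsec*. Of the 19 tested genes in the list of 21 this held for 4, against 24.6% of all genes.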
